A study of Bos taurus with 7 samples.

Results

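The antioxidant enzymes that remove superoxide and hydrogen peroxide were followed through 10 genes, chosen by symbol: SOD1, SOD2, SOD3, CAT, PRDX1, PRDX2, PRDX3, PRDX5, PRDX6 and TXN. Each of the 10 was found on 1 of the 19539 entries of the authors' deposited table, and all 10 were among the 19485 entries that carry a test. The tissue was whole bovine corpus luteum, the progesterone-secreting gland built from the follicle after ovulation, with 4 libraries from day 6 and 3 from day 4 of the estrous cycle. Per the labels, all cows were otherwise untreated and were synchronised alike: 7 days of a progesterone device, an injection of prostaglandin F2α (25 mg) and ovulation induced with gonadotropin-releasing hormone (86 mcg). The study's title concerns how the gland becomes able to regress. Day 4 glands came from slaughtered cows, per the labels, while colpotomy (surgery through the vagina) is given for glands later than day 6. How day 6 glands themselves were obtained is not stated, so day and route cannot be told apart if the route differed. The labels do not tie each library to a separate cow, so p-values reflect only the spread among these samples, which may be technical.

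Superoxide is a by-product of the respiratory chain and of steroid side-chain cleavage, and a product of NADPH oxidases. Superoxide dismutases turn it into hydrogen peroxide. The peroxide is then broken down by catalase in peroxisomes, or reduced by peroxiredoxins, which most often draw their electrons from thioredoxin and thioredoxin reductase. In the corpus luteum these enzymes have long been studied because steroid synthesis in mitochondria yields reactive oxygen and because reactive oxygen is linked to luteal regression.

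For every gene the table gives a mean for each day and a single Wald test, so values of single libraries, and how many of them share a direction, cannot be given. Levels are mean TPM, a share of all transcripts scaled by transcript length, and can be compared between genes. Log2 fold changes run day 6 over day 4, were obtained by multiplying the deposited Wald statistic by its standard error, and carry 95% Wald intervals. A gene is called where the authors' deposited table gives an adjusted p (Benjamini-Hochberg over all tested entries) under 0.05. These fold changes lay 0.21 (log2) above the ratio of the mean TPM for the median of 10599 entries averaging at least 5 TPM, so a gene with a fold change under that size can have a lower mean TPM on day 6. With 0.21 taken off, the values are said to be on the TPM scale. The 13 mitochondrially encoded protein genes took 29.2% of the mean TPM on day 6 and 10.3% on day 4 in the authors' deposited table, and leaving them out moves the fold changes the other way, to 0.13 above those given. The luteal identity of the tissue was plain in its markers. All 10 luteal markers examined were present, at 109 to 10393 TPM on day 6 and 62.4 to 8052 TPM on day 4 in the authors' deposited table. They comprise genes of steroid synthesis, cholesterol uptake and their control, the receptors LHCGR and PTGFR, and OXT, the oxytocin precursor. OXT was the highest of them on both days.

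All 10 genes were abundant. In the authors' deposited table the highest was TXN, thioredoxin itself, with 820 TPM on day 6 and 635 TPM on day 4, ranks 142 and 213 among all tested entries. PRDX2, the more abundant cytosolic peroxiredoxin, came next on both days with 414 TPM on day 6 and 356 TPM on day 4 in the authors' deposited table. At the low end stood CAT, catalase, and SOD3, the secreted dismutase of the extracellular space. The highest member exceeded the lowest 21.8 times on day 6 and 12.1 times on day 4. On day 6 the 5 genes SOD1, SOD2, PRDX1, PRDX3 and PRDX6 lay between 199 and 319 TPM in the authors' deposited table, a span of 1.61 times. On day 4 the same 5 genes lay close together, between 152 and 176 TPM there, a span of 1.16 times. The table gives no spread of a mean within a day, so neighbours in these orders cannot be separated by a test. Summed, the 10 genes held 2770 TPM on day 6 and 2044 TPM on day 4 in the authors' deposited table, that is 0.277% and 0.204% of the total.

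**Figure D1:**
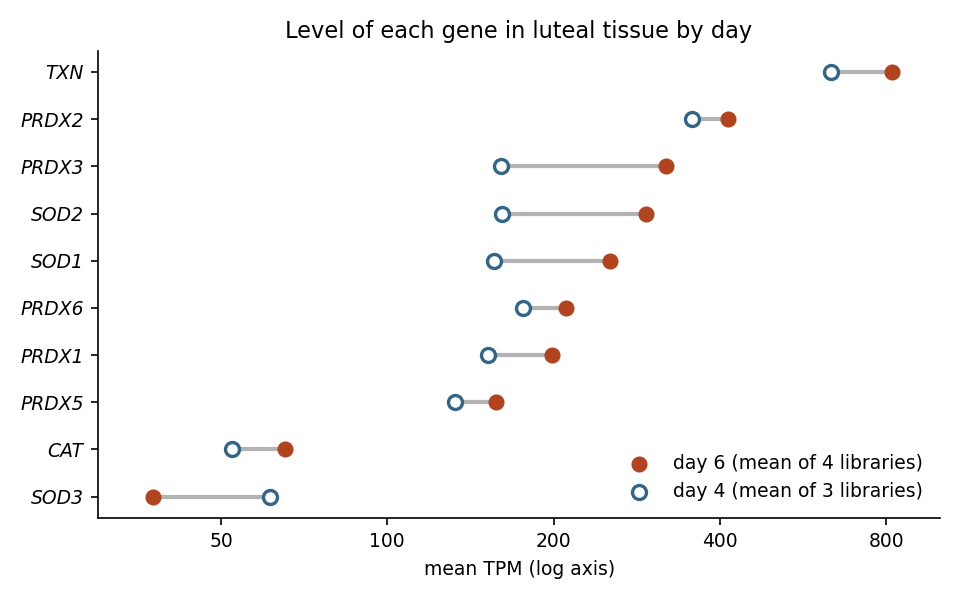
Mean TPM of each of the 10 genes (log axis) on day 6 (filled, mean of 4 libraries) and day 4 (open, mean of 3 libraries). The day 6 point lies to the right of the day 4 point for 9 genes and to the left for SOD3, with the widest gaps for PRDX3 and SOD2 among those that lie to the right.

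Of the 10 genes, 2 were called, SOD1 (cytosolic superoxide dismutase) and CAT (catalase), and both rose. In whole tissue, more cells of a type and more RNA per cell cannot be told apart. Over all tested entries 14.5% were called in the authors' deposited table, 4.12% higher and 10.4% lower on day 6. Among the 4904 entries averaging at least 20 TPM, a level that all 10 genes exceeded, 16.5% were called, 7.32% higher and 9.14% lower. The share of members called higher thus rests on 2 genes. The authors' Wald test called 0 members lower. At an unadjusted p under 0.05 there were 5 higher and 0 lower, where the background of higher entries was 11.0% over all tested and 20.9% at 20 TPM or more. The fold change was positive for 9 of the 10 genes, against 47.5% of all tested entries and 66.4% of those averaging at least 20 TPM. The median of the 10 was 0.56, beside -0.04 for all tested entries and 0.19 for those averaging at least 20 TPM, and it was 0.34 on the TPM scale. All 10 kept their sign on the TPM scale and without the mitochondrially encoded genes. Against a fold of 1.5 neither gene was called, which for CAT follows from an estimate below that fold.

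**Figure D2:**
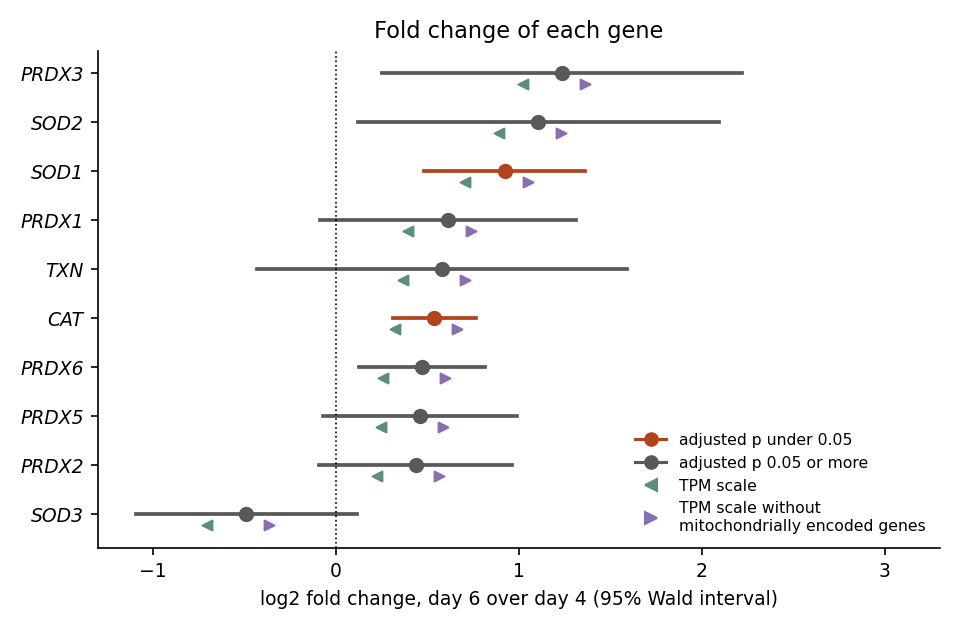
Log2 fold change, day 6 over day 4, of each gene with its 95% Wald interval (points and bars, red where adjusted p is under 0.05), and the same value on the TPM scale (left-pointing triangles) and without the mitochondrially encoded genes (right-pointing triangles). The intervals of SOD1, CAT, PRDX3, SOD2 and PRDX6 lie above 0 and the other 5 include 0.

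Of the 3 dismutases 1 was called. SOD1, the copper and zinc enzyme of the cytosol, rose to 253 TPM on day 6, against 156 TPM on day 4 (adjusted p = 0.0011, by the authors' deposited table). Its log2 fold change was 0.92 ± 0.22 (SE), a 1.89-fold rise with an interval of 1.40 to 2.57. SOD2, the manganese enzyme of the mitochondrial matrix, had a similar day 4 level and a higher day 6 mean, 293 TPM on day 6 and 161 TPM on day 4, but was not called (adjusted p = 0.121, by the authors' deposited table). Its fold change was the larger of the pair, 1.10 ± 0.50 (SE) on the log2 scale, and its interval of 1.09 to 4.26-fold was much the wider. SOD3 was the only member with a lower mean on day 6, 37.6 TPM against 61.4 TPM on day 4, and was not called (adjusted p = 0.285, by the authors' deposited table). Its log2 fold change of -0.49 ± 0.31 (SE) had an interval of 0.47 to 1.08-fold, which spans a halving and no change. The mean TPM of SOD1 was 6.72 times that of SOD3 on day 6 and 2.55 times on day 4. Whether that ratio changed was not tested, which would need values per library.

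CAT, which splits hydrogen peroxide without a reducing partner, had the smallest adjusted p of the 10 genes and 1 of the smaller changes. It rose to 65.3 TPM on day 6, against 52.4 TPM on day 4 (adjusted p = 0.000143, by the authors' deposited table), rank 437 by p among the tested entries. The log2 fold change was 0.54 ± 0.12 (SE), a 1.45-fold rise with an interval of 1.24 to 1.70. On the TPM scale it was 0.32. Its standard error was among the smallest, with 2.75% of the entries averaging at least 20 TPM below it. Of the 8 members that were not called, 4 had a larger fold change than CAT: PRDX3, SOD2, PRDX1 and TXN.

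Among the peroxiredoxins, PRDX3, the enzyme of the mitochondrial matrix, had the largest change of all 10 genes. It stood at 319 TPM on day 6 and 160 TPM on day 4 and was not called (adjusted p = 0.0784, by the authors' deposited table). The log2 fold change was 1.23 ± 0.50 (SE), or 2.35-fold with an interval of 1.19 to 4.66. PRDX6, which differs from the others in using glutathione and also acts on phospholipids, lay just outside the threshold with 210 TPM on day 6 and 176 TPM on day 4 (adjusted p = 0.0503, by the authors' deposited table). Its log2 fold change was 0.47 ± 0.18 (SE). The smallest Wald statistic that was called had a size of 2.686, and that of PRDX6 was 2.683. PRDX6 passed when entries under 1 TPM were left out (adjusted p = 0.0428) or when the mitochondrially encoded genes were taken out of the scale (adjusted p = 0.00896), and missed widely on the TPM scale (adjusted p = 0.333). Among the alternatives run, PRDX3 passed only without the mitochondrially encoded genes (adjusted p = 0.0423).

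The other peroxiredoxins had higher means on day 6 with intervals that include no change. PRDX1, a cytosolic enzyme, stood at 199 TPM on day 6 and 152 TPM on day 4 (adjusted p = 0.247, by the authors' deposited table), with a log2 fold change of 0.61 ± 0.36 (SE). PRDX2 had a log2 fold change of 0.44 ± 0.27 (SE) (adjusted p = 0.275, by the authors' deposited table), and its interval of 0.94 to 1.95-fold excluded a doubling. PRDX5, found in mitochondria, peroxisomes and cytosol, stood at 158 TPM on day 6 and 133 TPM on day 4 (adjusted p = 0.25, by the authors' deposited table), with a log2 fold change of 0.46 ± 0.27 (SE) and an interval of 0.95 to 1.98-fold. TXN had a log2 fold change of 0.58 ± 0.52 (SE) (adjusted p = 0.481, by the authors' deposited table), and its interval of 0.74 to 3.01-fold leaves a fall and a trebling both possible. The mean TPM of TXN was 4.13 times that of PRDX1 on day 6 and 4.17 times on day 4.

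Grouped by compartment, SOD2 and PRDX3, which act in sequence in the mitochondrial matrix, together held 613 TPM on day 6 and 322 TPM on day 4 in the authors' deposited table, a ratio of 1.90. With PRDX5, which is only partly mitochondrial, the ratio was 1.70. The cytosolic SOD1, PRDX1, PRDX2, PRDX6 and TXN together held 1896 TPM on day 6 and 1476 TPM on day 4 in the authors' deposited table, a ratio of 1.29. SOD2 and PRDX3 thus made up 22.1% of the summed level of the 10 genes on day 6 and 15.7% on day 4. No test of this difference was possible without library values. Neither gene of the mitochondrial pair was called.

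The calls did not follow the size of the change, because the errors differed widely. The standard errors of the 10 genes ran from 0.12 (CAT) to 0.52 (TXN), with a median of 0.29, beside 0.23 for the entries averaging at least 20 TPM. At the error of CAT a fold of 1.24 is enough for a call, at that of SOD1 1.52, and at those of PRDX3, SOD2 and TXN 2.55, 2.55 and 2.61. These 3 genes had standard errors above those of 92.6% to 93.1% of the entries averaging at least 20 TPM. The luteal markers also had wide errors, with a median standard error of 0.75. Which libraries spread in these genes cannot be seen in the table.

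**Figure D3:**
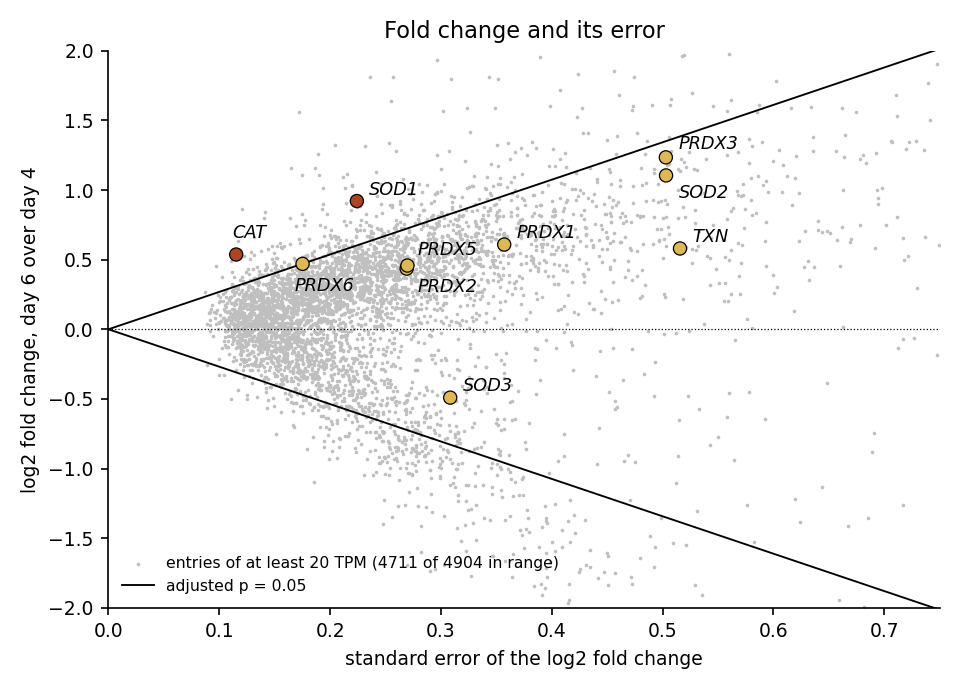
Log2 fold change, day 6 over day 4, against its standard error for the 10 genes (red called, yellow not called) and for entries averaging at least 20 TPM (grey, 4711 of 4904 within the axes). Black lines mark adjusted p = 0.05. CAT and SOD1 lie outside the lines, PRDX6 lies on the upper line, and PRDX3, SOD2 and TXN stand to the right with standard errors of 0.50 to 0.52.

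The partners of the peroxiredoxins showed no common direction. In a list of 13 further genes of the thioredoxin system, the authors' Wald test called 0 higher and 1 lower. An unadjusted p under 0.05 was reached by 2 higher and 2 lower genes. The counts of this and the later lists stand beside shares of 4.12% called higher and 10.4% called lower over all tested entries. The list median was -0.14. TXNIP, which binds and inhibits thioredoxin, fell to 64.4 TPM on day 6, against 306 TPM on day 4 (log2 fold change -2.06 ± 0.47 (SE), adjusted p = 0.00038, by the authors' deposited table). SRXN1, sulfiredoxin, which repairs overoxidised peroxiredoxins, is named after its values were seen: 15.7 TPM on day 6 and 6.19 TPM on day 4, log2 fold change 1.56 ± 0.60 (SE), adjusted p = 0.0612, by the authors' deposited table. TXN2, the mitochondrial thioredoxin that serves PRDX3, stood at 233 TPM on day 6 and 161 TPM on day 4 and was not called (log2 fold change 0.74 ± 0.43 (SE), adjusted p = 0.245, by the authors' deposited table). The thioredoxin reductases, also named after their values were seen, were far lower than the thioredoxins: TXNRD1 of the cytosol had 20.6 TPM on day 6 and 19.99 TPM on day 4, and TXNRD2 of mitochondria 16.4 TPM on day 6 and 14.7 TPM on day 4 in the authors' deposited table. TXNRD3, the remaining reductase, had the other sign and was not called, with 5.92 TPM on day 6 and 10.2 TPM on day 4 (log2 fold change -0.58 ± 0.23 (SE), adjusted p = 0.0732, by the authors' deposited table). PRDX4, the peroxiredoxin of the endoplasmic reticulum and no member of the set, stood at 123 TPM on day 6 and 149 TPM on day 4 (log2 fold change -0.14 ± 0.24 (SE), adjusted p = 0.755, by the authors' deposited table).

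The glutathione branch is the other route for removing peroxides. The authors' Wald test called 0 of 16 tested genes higher and 1 lower, beside 4.12% higher and 10.4% lower over all tested entries. An unadjusted p under 0.05 was reached by 3 higher and 2 lower genes, and the median was 0.41. The call was GGT1, which splits extracellular glutathione (0.194 TPM on day 6 and 1.13 TPM on day 4, log2 fold change -2.37 ± 0.81 (SE), adjusted p = 0.031, by the authors' deposited table). GPX1, the cytosolic glutathione peroxidase, stood at 313 TPM on day 6 and 379 TPM on day 4 (log2 fold change -0.09 ± 0.42 (SE), adjusted p = 0.909, by the authors' deposited table). GPX3, the secreted form, stood at 357 TPM on day 6 and 233 TPM on day 4 (log2 fold change 0.85 ± 0.53 (SE), adjusted p = 0.277, by the authors' deposited table).

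Of the list of the transcription factor NRF2 and its known targets, 3 of 18 genes were called higher and 1 lower, with a median of 0.13, or -0.09 on the TPM scale. TALDO1, transaldolase, rose to 242 TPM on day 6, against 138 TPM on day 4 (log2 fold change 1.02 ± 0.33 (SE), adjusted p = 0.0185, by the authors' deposited table). ME1, malic enzyme, rose to 48.7 TPM on day 6, against 28.3 TPM on day 4 (log2 fold change 0.98 ± 0.34 (SE), adjusted p = 0.0356, by the authors' deposited table). On the TPM scale TALDO1 (adjusted p = 0.0595) and ME1 (adjusted p = 0.0978) were no longer called. MAFF, a small partner of NRF2, fell to 2.05 TPM on day 6, against 6.59 TPM on day 4 (log2 fold change -1.51 ± 0.36 (SE), adjusted p = 0.000913, by the authors' deposited table). NFE2L2, which encodes NRF2, had a log2 fold change of 0.10 with an interval of -0.14 to 0.33, and KEAP1, its inhibitor, 0.11 with an interval of -0.13 to 0.35. Both intervals are narrow, and both values turn negative on the TPM scale (-0.12 and -0.10).

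Genes that handle the metals of the dismutases were examined next. For 13 genes of copper, zinc and manganese handling, the authors' Wald test called 1 higher and 0 lower. Over all tested entries 4.12% were called higher and 10.4% lower, so a list of this size is expected to hold few calls. An unadjusted p under 0.05 was reached by 4 higher and 2 lower genes. ATP7B, a copper pump, rose to 5.69 TPM on day 6, against 3.29 TPM on day 4 (log2 fold change 1.03 ± 0.38 (SE), adjusted p = 0.0484, by the authors' deposited table), a call lost on the TPM scale (adjusted p = 0.115) and when centred on the median entry (adjusted p = 0.0565). CCS, the chaperone that loads copper into SOD1, stood at 15.2 TPM on day 6 and 22.5 TPM on day 4 (log2 fold change -0.37 ± 0.25 (SE), adjusted p = 0.335, by the authors' deposited table). Its sign was opposite to that of SOD1, with an interval of -0.86 to 0.13.

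Sources of superoxide and peroxide were called in both directions. Of 23 tested genes 2 were higher and 6 lower, with a median of -0.02, or 0.10 without the mitochondrially encoded genes. The rise of POLDIP2 was not called on the TPM scale (adjusted p = 0.228), nor was the fall of CYBA without the mitochondrially encoded genes (adjusted p = 0.0895). MAOB, a mitochondrial amine oxidase that yields hydrogen peroxide, fell to 2.71 TPM on day 6, against 31.6 TPM on day 4 (log2 fold change -3.37 ± 0.64 (SE), adjusted p = 1.36e-05, by the authors' deposited table). RAC2, a regulator of the phagocyte NADPH oxidase, fell to 3.08 TPM on day 6, against 10.3 TPM on day 4 (log2 fold change -1.52 ± 0.42 (SE)) in the authors' deposited table. NOX5 fell at a low level, 0.268 TPM on day 6 against 1.38 TPM on day 4 in the authors' deposited table. NOX4, an oxidase of non-phagocytic cells, had 1.17 TPM on day 6 and 1.38 TPM on day 4 in the authors' deposited table, with a log2 fold change of 0.01 and an interval of -0.60 to 0.62.

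Peroxisomes, where catalase resides, were examined through 21 genes of their assembly and membrane. The authors' Wald test called 6 of them higher and 0 lower, and 8 higher and 1 lower reached an unadjusted p under 0.05. PEX5, the receptor that imports catalase and other matrix proteins, rose to 16.3 TPM on day 6, against 12.8 TPM on day 4 (log2 fold change 0.57 ± 0.14 (SE), adjusted p = 0.00158, by the authors' deposited table), a change of about the size of that of CAT. PXMP4 and the peroxisomal protease LONP2 rose with log2 fold changes of 0.80 ± 0.26 (SE) and 0.43 ± 0.14 (SE). All 6 calls were lost on the TPM scale, with PEX5 nearest (adjusted p = 0.0562), whereas CAT (adjusted p = 0.0289) and SOD1 (adjusted p = 0.012) stayed called there. Without the mitochondrially encoded genes all 6 stayed called. When centred on the median entry, PEX13 alone of the 6 was lost (adjusted p = 0.0502). The list median was 0.22, and 0.00 on the TPM scale.

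Beside SOD2 and PRDX3, 14 nuclear genes that mark mitochondrial mass had a median of 0.66, or 0.45 on the TPM scale. The authors' Wald test called 0 of them, while 4 higher and 0 lower reached an unadjusted p under 0.05. IMMT, of the inner membrane folds, stood at 69.3 TPM on day 6 and 45.4 TPM on day 4 (log2 fold change 0.84 ± 0.35 (SE), adjusted p = 0.087, by the authors' deposited table). VDAC1, the pore of the outer membrane, stood at 301 TPM on day 6 and 195 TPM on day 4 (log2 fold change 0.76 ± 0.44 (SE), adjusted p = 0.242, by the authors' deposited table). Both fold changes were smaller than those of PRDX3 and SOD2, by less than the standard errors of 0.50. Of the 14 genes 12 had a positive fold change, and the log2 values ran from -0.14 (TOMM20) to 1.04 (HSPD1). The 13 mitochondrially encoded genes were all called higher, with a median of 1.81.

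**Figure D4:**
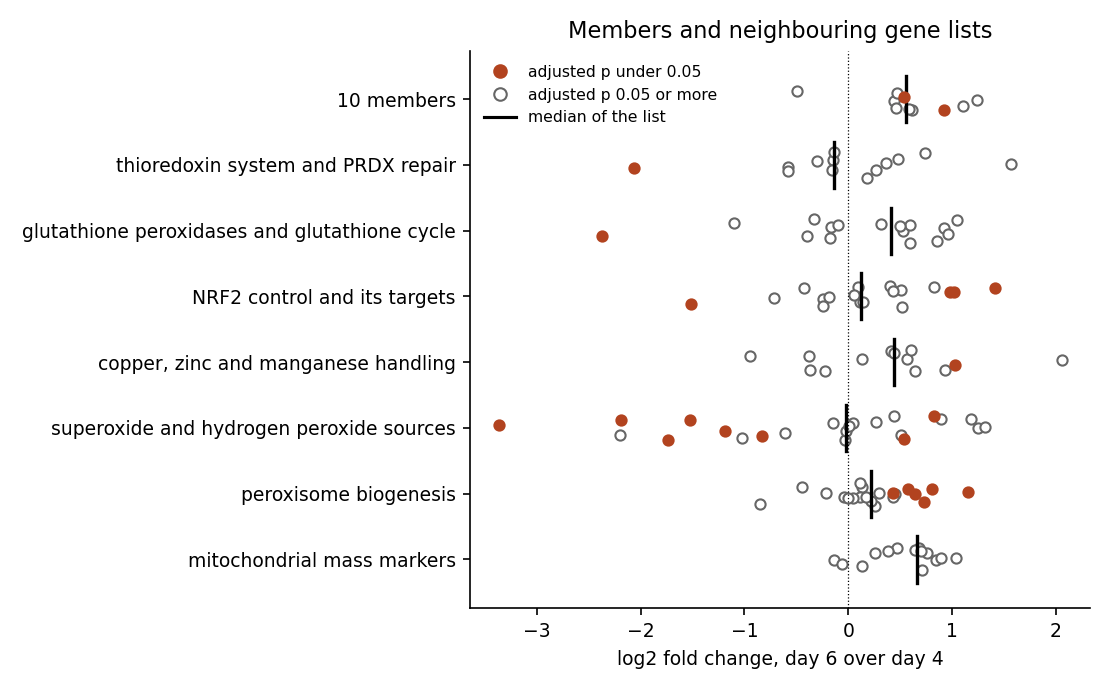
Log2 fold change, day 6 over day 4, of the 10 genes (top row) and of the tested genes of 7 neighbouring lists (filled where adjusted p is under 0.05, open otherwise), with the median of each list as a vertical line. The 10 genes have a median of 0.56, the mitochondrial mass markers 0.66, and the further thioredoxin system genes -0.14.

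Markers of several cell types were called between the days, in both directions. The luteal markers summed to 27068 TPM on day 6 and 14271 TPM on day 4. Of these sums OXT alone held 10393 TPM on day 6 and 8052 TPM on day 4. Of the 10 markers 3 were called higher (1 of 10 on the TPM scale), led by STAR (2504 TPM on day 6 and 588 TPM on day 4 in the authors' deposited table). Smooth muscle and pericyte markers summed to 872 TPM on day 6 and 2822 TPM on day 4 in the authors' deposited table, with 6 of 12 called lower and 1 higher, and fibroblast markers had 6 of 12 called lower. In the fibroblast list 3 of 12 genes had a positive fold change, and COL1A1 (log2 fold change 0.08) and COL1A2 (-0.04) were not called. Within the smooth muscle and pericyte list RGS5 had a log2 fold change of 0.05, and KCNJ8 (0.56) was the gene called higher. SOD3, which blood vessel walls are known to secrete, also had a lower mean on day 6 but was not called. A link between SOD3 and these markers was not tested. Macrophage markers summed to 71.6 TPM on day 6 and 172 TPM on day 4 in the authors' deposited table, with 5 of 12 called lower and 0 higher, beside the lower RAC2, and none of the 12 had a positive fold change. Endothelial markers had 2 of 12 called lower, CLDN5 (15.6 TPM on day 6 and 60.1 TPM on day 4) and EGFL7 (50.4 TPM on day 6 and 86 TPM on day 4) in the authors' deposited table. PECAM1, a general endothelial marker, was not called, with 41.1 TPM on day 6 and 51.3 TPM on day 4 (adjusted p = 0.812, by the authors' deposited table). Of the 12 endothelial markers 4 had a positive fold change. Among these were KDR (log2 fold change 0.43) and CDH5 (0.23), which were not called. Immediate early genes, which respond within minutes to many stimuli, had 7 of 12 called lower and 1 higher, with FOS at 9.54 TPM on day 6 and 218 TPM on day 4 in the authors' deposited table. Without the mitochondrially encoded genes 4 macrophage, 1 endothelial and 4 immediate early genes stayed called lower. The part of these shifts in the results for the 10 genes was not tested. Red blood cells carry much PRDX2 and catalase protein. Their 10 tested markers, which do not include the alpha globins HBA and HBA1 (not matched), summed to 4.7 TPM on day 6 and 5.69 TPM on day 4 in the authors' deposited table, and HBB had 0.851 TPM on day 6 and 0.369 TPM on day 4 there. Of these markers 8 averaged under 1 TPM. RNA levels do not measure red cell protein, and the part of blood in PRDX2 and CAT was not tested.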

How the data were processed

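Per the labels, stranded messenger RNA libraries of 7 luteal samples were sequenced with single reads of 100 nt. FastQC, DESeq2 and the build ARS-UCD1.2 are named, per the submitters' processing notes. The counting tool and annotation were not stated in the sources at hand. The deposited table holds mean TPM per day (each column sums to 999999), a log2 ratio of the mean TPM after adding 1, a log2 standard error, a score that is the Wald statistic, and p-values with their Benjamini-Hochberg adjustment, all made by the authors. The score was identified from its values: its two-sided normal p equals the deposited p-value in 19485 entries (tolerance 1e-06), and the other 54 were left out. Depth per library is unknown, so no counting interval was computed and no count test could be run. The authors' test stands in its place.

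Fold changes, intervals and alternative scalings were computed over all tested entries (Python 3.11.15, pandas 2.3.3, SciPy 1.17.1). The Wald p-value and its adjustment were also run on values simulated with normal error at the deposited standard errors. That run did not include the scalings and cannot show whether a normal distribution suits so few libraries. The 10 genes and 15 further lists (220 genes, 211 tested) were chosen with earlier results of these data known. The rule names the 10 genes, PRDX4, up to 4 called genes of each list by smallest adjusted p (2 where none was called) and the first 2 markers of each list, not all of which are printed. In the ARS-UCD2.0 annotation of RefSeq, PRDX6 overlaps AADACL3 (0.739 TPM on day 6 and 0.632 TPM on day 4 in the authors' deposited table) and SLC9C2, and TXN overlaps a long non-coding RNA. Whether the counting used strand is unknown here. Some results are not reported here.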

Additional observations from a re-analysis of the deposited data

How the results depend on the processing

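All 10 genes kept their direction under the 3 scalings, which move every gene by 1 constant, and in the log2 ratio of mean TPM after adding 1; the other alternatives do not alter the fold change. The count of called members was 2 on the TPM scale, when centred on the median entry and at an adjusted p under 0.01; it was 3 with entries of at least 1 TPM only, and 4 when the mitochondrially encoded genes were taken out of the TPM scale, which shifts every fold change by construction. It was 0 in a Wald test against a fold of 1.5 (0 members at an unadjusted p under 0.05), and 0 when a t distribution (5 degrees of freedom) was used (3 members at an unadjusted p under 0.05). No entry of the table passed under that t distribution, so the loss of SOD1 (adjusted p = 0.254) and CAT (adjusted p = 0.245) there is not particular to them.

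Over all entries 2823 were called, 803 higher and 2020 lower. On the TPM scale 299 were higher and 3829 lower (7.24% of calls higher, against 28.4%), and without the mitochondrially encoded genes 1848 were higher (53.7%). At an adjusted p under 0.01 there were 1443 calls, 301 higher and 1142 lower. Against a fold of 1.5 there were 502, 45 higher and 457 lower, and with the t distribution 0, 0 higher and 0 lower, with 3133 entries at an unadjusted p under 0.05. No paired analysis was possible because the deposited table holds no values per library. For the same reason no library could be left out, and no difference between 2 genes was tested.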

Other observations

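Further genes of the same pathways, named after their values were seen, add detail to the account of peroxide sources and removal. Parts of the NADPH oxidases other than RAC2 and NOX5 also fell: NOXA1, an activator, to 1.07 TPM on day 6, against 4.29 TPM on day 4 (log2 fold change -1.73 ± 0.56 (SE)), and NCF1, an organiser of the phagocyte enzyme, to 1.22 TPM on day 6, against 3.14 TPM on day 4 (log2 fold change -1.19 ± 0.39 (SE)) in the authors' deposited table. CYBB, the catalytic subunit of that enzyme, had the other sign and was not called, with 9.67 TPM on day 6 and 6.28 TPM on day 4 (adjusted p = 0.0837, by the authors' deposited table). GPX4, which reduces lipid peroxides in membranes, was the most abundant gene of the glutathione list with 843 TPM on day 6 and 504 TPM on day 4 and was not called (log2 fold change 0.96 ± 0.57 (SE), adjusted p = 0.255, by the authors' deposited table). GCLM, the modifier of the enzyme that limits glutathione synthesis, had 28.3 TPM on day 6 and 15.96 TPM on day 4 (log2 fold change 1.05 ± 0.41 (SE), adjusted p = 0.0626, by the authors' deposited table), while GCLC, its catalytic partner, had 12.1 TPM on day 6 and 16.7 TPM on day 4 (log2 fold change -0.33 ± 0.29 (SE)). Whether the pair differed was not tested.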
